A study of Mus musculus with 18 samples.

Results

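Metallothioneins and antioxidant enzymes were followed through RNA sequencing of epididymal white adipose tissue (eWAT) and liver of mice on a high-fat or a normal diet. The set holds 10 genes, chosen by symbol from the 23474 gene rows of the deposited expression table: the metallothioneins Mt1 and Mt2, and the enzymes Nqo1, Gclc, Srxn1, Txnrd1, Hmox1, Cat, Sod1 and Sod2. All 10 were found in the table and passed the filter on low values in every fit, which kept genes with at least 1 FPKM (fragments per kilobase of transcript, scaled to the mapped total of the library) in at least 3 libraries. The mice were males of the strain that the labels spell C56BL/6J in one field and C57BL/6J in another, housed individually, and 17 weeks old at sampling. The groups were high-fat diet-prone mice (HP), high-fat diet-resistant mice (HR) and mice on a normal diet (ND); feeding began at 5 weeks and lasted 12 weeks. Each of the 6 groups, 3 per tissue, held 3 libraries. The labels give neither the rule that told prone from resistant mice nor whether a replicate number marks the same mouse in both tissues, and no label ties a library to 1 mouse. The p-values therefore measure the spread between these libraries, which may be technical in part.

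Metallothioneins are small cysteine-rich proteins that bind zinc and copper and scavenge radicals; their genes are driven by the zinc-sensing factor MTF1 through metal response elements, and in liver also by glucocorticoids and by interleukin-6 during the acute phase response. Nqo1, Gclc, Srxn1, Txnrd1 and Hmox1 are classic targets of NRF2 (gene Nfe2l2), which KEAP1 holds in check and which acts through antioxidant response elements. Superoxide dismutases turn superoxide into hydrogen peroxide, and catalase, a peroxisomal enzyme abundant in liver, breaks hydrogen peroxide down.

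Promoter windows of 250 bases, ending at the base before the RefSeq start site, were read for 8 of the 10 genes from the RefSeq table of build GRCm38.p6. Gclc and Hmox1 had no entry in it. The 4 windows shown are those of the pair of metallothioneins, which moved together between libraries, and of Srxn1 and Txnrd1, which rose in HP eWAT. Capitals mark matches, on either strand, to a metal response element core (TGCACNC or TGCGCNC) or to an antioxidant response element core (TGACNNNGC), and no match overlaps another.
Mt1, chr8:94178839-94179088, plus strand: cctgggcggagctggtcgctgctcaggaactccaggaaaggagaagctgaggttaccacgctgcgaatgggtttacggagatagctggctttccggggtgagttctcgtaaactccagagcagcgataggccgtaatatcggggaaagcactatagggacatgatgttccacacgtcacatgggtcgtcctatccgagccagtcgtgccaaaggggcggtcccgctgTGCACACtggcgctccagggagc
Mt2, chr8:94172368-94172617, plus strand: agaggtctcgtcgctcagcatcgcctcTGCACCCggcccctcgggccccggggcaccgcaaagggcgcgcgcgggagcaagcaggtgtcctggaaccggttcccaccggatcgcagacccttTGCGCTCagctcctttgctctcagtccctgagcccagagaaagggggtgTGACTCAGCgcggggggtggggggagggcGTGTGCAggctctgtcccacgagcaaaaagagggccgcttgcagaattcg
Srxn1, chr2:152105274-152105523, plus strand: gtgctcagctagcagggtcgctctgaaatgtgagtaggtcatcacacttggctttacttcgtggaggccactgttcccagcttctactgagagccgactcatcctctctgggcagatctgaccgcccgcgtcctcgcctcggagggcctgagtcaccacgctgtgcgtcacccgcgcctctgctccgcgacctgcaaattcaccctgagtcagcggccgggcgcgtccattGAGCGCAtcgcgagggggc
Txnrd1, second of 3 start sites, chr10:82858956-82859205, plus strand: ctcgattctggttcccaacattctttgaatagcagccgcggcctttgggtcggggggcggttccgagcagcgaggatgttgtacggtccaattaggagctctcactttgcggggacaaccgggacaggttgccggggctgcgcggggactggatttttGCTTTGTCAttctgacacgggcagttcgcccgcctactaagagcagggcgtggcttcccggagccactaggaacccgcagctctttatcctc
The Mt2 window held 3 metal response element cores, 223, 128 and 50 bases before the start, and 1 antioxidant response element core 79 bases before it. The Mt1 window held 1 metal response element core, TGCACAC, 23 bases before the start. Of 32851 windows of the same length, 21.4% held at least 1 metal response element core and 1.26% held at least 3. The antioxidant response element core was present in 10.2% of those windows. It matched the Txnrd1 window of the second start site, 92 bases before that start, and the Sod1 window 56 bases before the start. The Srxn1 window held 1 metal response element core 19 bases before the start. The windows of Nqo1, Cat and Sod2 held neither core, nor did those of the other Txnrd1 start sites. A match describes these letters and not a site in use, and its absence says only that the letters are not in this window. Bases after the start sites used were not searched. These RefSeq starts differ from the annotated gene starts of the metallothioneins, chr8:94179082 for Mt1 and chr8:94172664 for Mt2. The bases just before the annotated Mt2 start therefore lay outside its window.

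The tissue labels were checked against marker genes. In liver the 5 hepatocyte genes summed to 51116 to 90678 FPKM in HP, 56725 to 67381 in HR and 48495 to 52967 in ND libraries, although Alb (albumin) was listed at 0 in 1 HP library. The skeletal muscle genes summed to 98.9 FPKM in liver HP 2 and 19.9 in HP 3, against at most 0.955 in the other 7 liver libraries. Over all genes, FPKM summed to 814680 to 930139 in liver HP libraries, more than in every HR (720230 to 788068) and ND library (703182 to 791867). In eWAT, ND 1 and HR 2 stood apart: the 4 spermatid genes summed to 92413 and 11231 FPKM there, against at most 2282 in the other 7 libraries, and the 4 adipocyte genes to 3533 and 4760, against 14984 to 29573. Those 7 were not free of spermatid transcripts: the sum was 2282 FPKM in ND 3 and 1738 in HP 1, and at most 128 in the rest. Epididymal genes summed to 18899 FPKM in ND 1 and to 1275 in HP 2. Over all genes, FPKM summed to 1002765 in ND 1, against 517361 to 608819 in the other eWAT libraries. The difference of HP from ND in eWAT is therefore given for each of the 10 genes over all 9 libraries and over the 7 without ND 1 and HR 2, which leave 2 ND and 2 HR libraries.

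**Figure D1:**
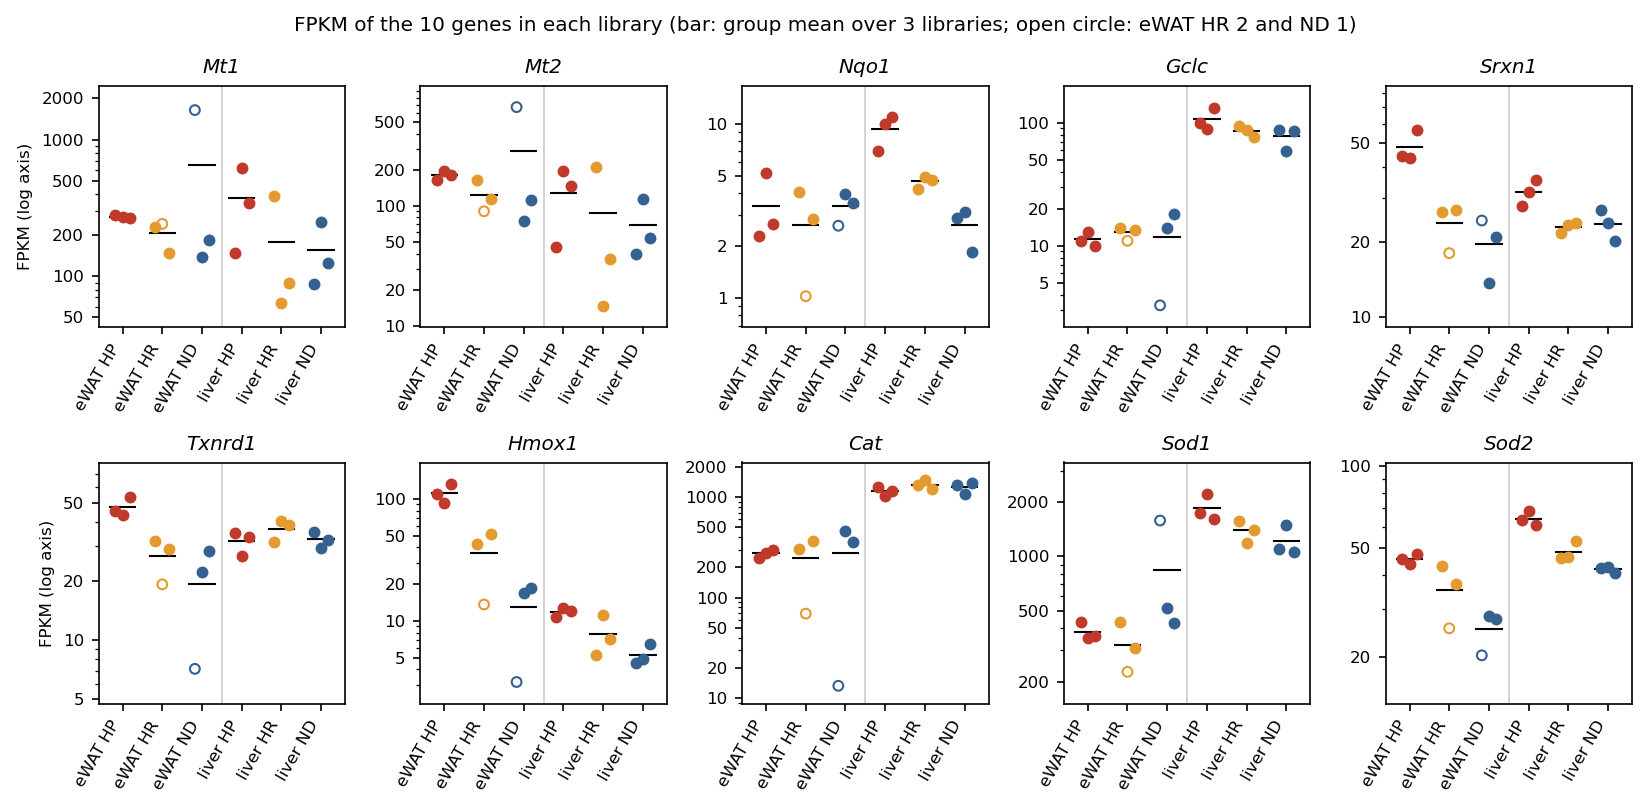
FPKM of each of the 10 genes (log axis) in every library, by tissue and group. Points are libraries, bars are group means over 3 libraries, and open circles are eWAT HR 2 and ND 1, where Mt1 reached 1644 FPKM and Cat was as low as 13.3 FPKM (both in ND 1).

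The first question was which of these genes differed in liver between prone mice and mice on the normal diet. In liver, 5 of the 10 genes rose in HP over ND mice and none fell: Nqo1, Srxn1, Hmox1, Sod1 and Sod2. By the same limma test with adjusted p under 0.05, 31.7% of the 10633 genes tested were called in either direction, 17.6% were higher and 14.1% were lower. The largest difference was that of Nqo1, and both metallothioneins varied too much between libraries of 1 group to pass the test.

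Nqo1 encodes a quinone reductase that uses NAD(P)H to reduce quinones without forming radicals. Its level was 6.99, 9.99 and 10.9 FPKM in HP livers, 4.25, 4.98 and 4.77 FPKM in HR livers, and 2.89, 3.13 and 1.84 FPKM in ND livers. The 3 groups did not overlap, with HP highest and ND lowest. On the log2(FPKM + 1) scale, Nqo1 was 1.51 higher in HP than in ND livers (SE 0.18, limma adjusted p = 0.0004539), 0.84 higher in HP than in HR livers (SE 0.18, adjusted p = 0.01876), and 0.66 higher in HR than in ND livers, which missed the threshold (adjusted p = 0.0772). Of 10 genes, 0 passed in HR against ND livers, where 3.24% of all genes were called and 1 of the 10, Nqo1, had an unadjusted p under 0.05. In HP against HR livers 2 of 10 passed, Nqo1 and Sod2, both higher in HP, against 11.1% of all genes in either direction and 7.2% higher. The Nqo1 call of HP against HR was lost without HP 2, HP 3, HR 2 or HR 3, and without the filter on low values.

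Hmox1 encodes haem oxygenase 1, the inducible enzyme that opens the haem ring to biliverdin, iron and carbon monoxide. It stood at 10.9, 12.6 and 12.0 FPKM in HP livers, 5.26, 11.2 and 7.06 FPKM in HR livers, and 4.55, 4.84 and 6.41 FPKM in ND livers. All HP values lay above all ND values, while HR 2, at 11.2 FPKM, fell among the HP libraries. The difference between HP and ND livers was 1.04 on the log2 scale (SE 0.21, limma adjusted p = 0.005691), and that between HP and HR livers was 0.59 (SE 0.21, adjusted p = 0.09495). Without HR 2, Hmox1 passed in HP against HR livers.

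Srxn1 encodes sulfiredoxin, which restores over-oxidised peroxiredoxins. Its level was 27.9, 31.7 and 35.5 FPKM in HP livers, 21.8, 23.5 and 23.8 FPKM in HR livers, and 26.9, 23.9 and 20.1 FPKM in ND livers. HP values lay above both other groups, although HP 1 and ND 1 were close. The difference of HP over ND was 0.41 (SE 0.13, limma adjusted p = 0.03776); it was lost when any of 6 of the 9 libraries was left out (HP 2, HP 3, HR 2, HR 3, ND 2 or ND 3) and, at 0.20, when every library was rescaled to the same FPKM sum (adjusted p = 0.3192). It was also lost without the filter on low values, after quantile normalization and with only HP and ND in the fit.

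Txnrd1 encodes the cytosolic thioredoxin reductase, and Gclc the catalytic subunit of the enzyme that starts glutathione synthesis. Txnrd1 did not pass in liver. It measured 34.9, 26.9 and 33.5 FPKM in HP, 31.4, 40.6 and 38.3 FPKM in HR, and 35.6, 29.4 and 32.4 FPKM in ND livers. Those groups overlapped fully, and the difference of HP from ND was -0.04 (SE 0.14, limma adjusted p = 0.8676). Gclc was 99.4, 88.0 and 132 FPKM in HP, 93.7, 88.0 and 77.0 FPKM in HR, and 87.2, 59.4 and 86.1 FPKM in ND livers. The Gclc values of HP and ND did not overlap, but the lowest HP and the highest ND library differed by less than 1 FPKM, and the difference of 0.45 missed the threshold (SE 0.18, limma adjusted p = 0.08076). After a correction for transcript length and GC content, added after the data were seen, it was 0.68 and passed (adjusted p = 0.01011).

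Sod2 encodes the manganese superoxide dismutase of mitochondria, and Sod1 the copper-zinc enzyme of the cytosol. Sod2 measured 63.6, 68.7 and 60.7 FPKM in HP livers, 46.0, 46.4 and 53.2 FPKM in HR livers, and 42.4, 42.7 and 40.6 FPKM in ND livers. The 3 groups did not overlap, and Sod2 had the smallest spread between libraries of a group among the 10 genes in liver, an SD of 0.09 on the log2 scale, at the 5.31 percentile of all genes tested. It was 0.61 higher in HP than in ND livers (SE 0.11, limma adjusted p = 0.00302), 0.40 higher in HP than in HR livers (SE 0.11, adjusted p = 0.03808) and 0.21 higher in HR than in ND livers, which missed the threshold (SE 0.11, adjusted p = 0.3161). The call of HP against HR was lost without any 1 of 8 of the 9 libraries (all but ND 2).

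Sod1 measured 1740, 2221 and 1624 FPKM in HP livers, 1583, 1193 and 1411 FPKM in HR livers, and 1101, 1499 and 1061 FPKM in ND livers. HP values lay above those of both other groups. The difference of HP over ND was 0.61 (SE 0.19, limma adjusted p = 0.02887). It was 0.27 after that correction (adjusted p = 0.1671), and it was also lost after rescaling to the same FPKM sum, without the filter on low values and without HP 2, ND 1 or ND 3. Cat, the other enzyme of the set with a level this high in liver, stood at 1264, 1030 and 1139 FPKM in HP, 1318, 1473 and 1196 FPKM in HR, and 1306, 1084 and 1384 FPKM in ND livers. Its groups overlapped, and the difference of HP from ND was -0.13 (SE 0.15, limma adjusted p = 0.5141).

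**Figure D2:**
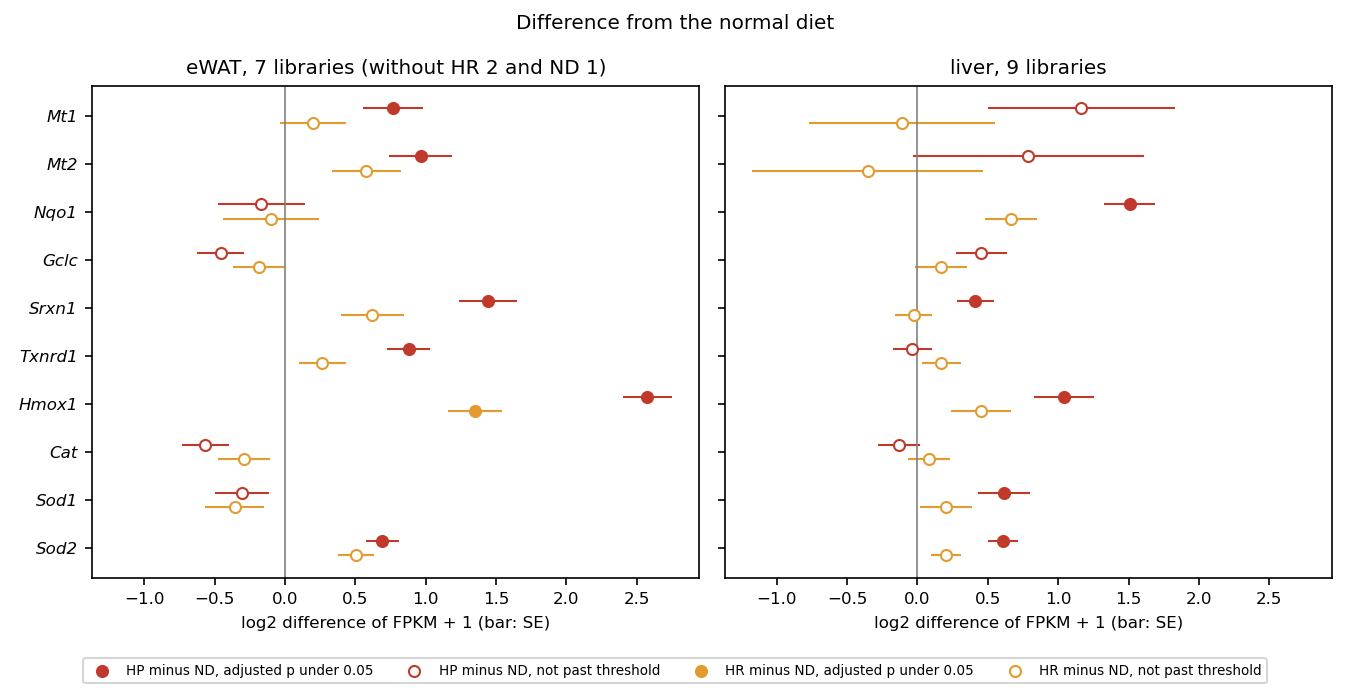
Difference of HP and of HR from ND for the 10 genes on the log2(FPKM + 1) scale, with bars of 1 SE, in eWAT over 7 libraries (left) and in liver over 9 libraries (right). Filled points have a limma adjusted p under 0.05; the liver metallothioneins have the widest bars, and Hmox1 in HP eWAT, at 2.58, is the point farthest from 0.

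The metallothioneins were the genes of the set that varied most between libraries of the same group in liver. Mt1 measured 147, 620 and 346 FPKM in HP livers, 386, 63.8 and 88.9 FPKM in HR livers, and 87.4, 251 and 126 FPKM in ND livers. Mt2 measured 45.2, 194 and 145 FPKM in HP livers, 212, 14.6 and 35.9 FPKM in HR livers, and 39.7, 114 and 53.6 FPKM in ND livers. Both genes were highest in the same libraries, HP 2, HP 3, HR 1 and ND 2, so that every group held at least 1 high and 1 low library and the groups overlapped. The within-group SD on the log2 scale was 1.09 for Mt1 and 1.35 for Mt2, at the 99.8 and 99.9 percentiles of the 10633 genes. Mt1 was 1.17 higher in HP than in ND livers (SE 0.66, limma adjusted p = 0.1971) and Mt2 0.79 higher (SE 0.82, adjusted p = 0.4832). Across the 9 livers, Mt1 spanned a factor of 9.71 and Mt2 a factor of 14.5, while the ratio of Mt1 to Mt2 stayed between 1.82 (HR 1) and 4.36 (HR 2). Without HR 1, Mt1 and Mt2 passed the test in HP against HR livers, by 2.05 and 2.19.

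**Figure D3:**
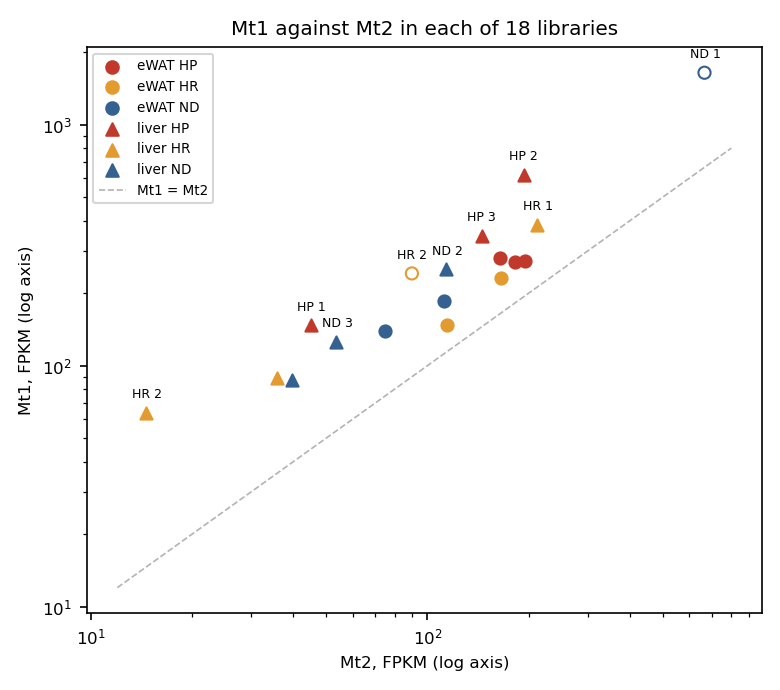
Mt1 against Mt2 in each of the 18 libraries, in FPKM on log axes; circles are eWAT (open: ND 1 and HR 2), triangles are liver, and the dashed line marks equal values. All points lie above the line, and among livers Mt1 is highest in HP 2 (620 FPKM) and Mt2 in HR 1 (212 FPKM), and both are lowest in HR 2 (63.8 and 14.6 FPKM), with high and low libraries in each group.

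Mt1 (chr8:94179082-94180327) and Mt2 (chr8:94172664-94173568) lie close together on the plus strand of GRCm38. The longest annotated transcript of each shares no stretch of 50 bases with any transcript of the other or of another gene. Among 6568 genes compared over the 9 livers, the genes most like Mt1 by Pearson correlation of log2(FPKM + 1) were Rps7 (r = 0.96), Mt2 (r = 0.96) and Apof (r = 0.96). Those most like Mt2 were Mt1, Apof (r = 0.93) and Tmem11 (r = 0.91), and the gene most like Srxn1 was Trim7 (r = 0.95). These are descriptions over libraries that share their group differences and scaling. Apof ranged only over 346 to 461 FPKM and Rps7 over 97.5 to 180 FPKM, so neither followed Mt1 in size.

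The regulators and partners of these enzymes were measured in the same livers. Nfe2l2 was 0.49 higher in HP than in ND livers (SE 0.14, limma adjusted p = 0.02478), Keap1 0.66 lower (log2 difference -0.66, SE 0.19, adjusted p = 0.02654) and Bach1, a repressor that competes with NRF2, 0.46 lower (-0.46, SE 0.15, adjusted p = 0.04019). Of 9 such factors and partners 4 rose and 2 fell; after quantile normalization or rescaling the split was 2 and 4. Maff (1.03) and Mafk (0.70), small MAF proteins that pair with NRF2, were among those that rose. Of 18 other commonly cited NRF2 targets tested, of 20 listed, 14 rose and 2 fell, with a median log2 difference of 0.81 against -0.02 over all genes; the rises numbered 10 to 12 under the 3 other scalings. Ugdh (1.27), Taldo1 (1.26), Txn1 (1.24) and Abcc3 (1.14) differed most among those that rose, and Gclm, the regulatory partner of Gclc, rose by 0.42 (SE 0.14, adjusted p = 0.0384). G6pdx (-0.89) and Abcc2 (-0.99) fell. Of all genes, 17.6% were higher and 14.1% were lower by the same test.

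Of 12 genes for glutathione synthesis, peroxidases and glutaredoxins, 9 rose and 1 fell in HP over ND livers (median 0.61), with Gpx4 (1.62) and Ggct (1.36) rising most and Oplah (-0.77) falling; after the length and GC correction 4 rose. Of 13 thioredoxin-system genes, 3 peroxiredoxins rose, Prdx3 (0.60), Prdx5 (0.58) and Prdx2 (0.58), and Sesn3 fell (-0.45). Extracellular Sod3 (0.78) and the biliverdin reductase gene Blvra (0.62) were the 2 that rose of 4 genes of superoxide removal and haem breakdown. Among 18 genes of zinc and copper sensing and transport, 2 rose and 6 fell, against 17.6% and 14.1% of all genes, among them the zinc importers Slc39a5 (1.10) and Slc39a14 (-0.91), while Mtf1 differed by 0.12 (SE 0.20, limma adjusted p = 0.6841). For the other known inducers of metallothioneins, 0 of 10 glucocorticoid-responsive genes rose and 3 fell, Tat, Fkbp5 (-1.12) and Sgk1 (-0.70), and 6 of 11 acute phase genes rose, led by Lcn2 (3.33), Saa2 (2.89), Orm2 (2.38) and Saa1 (2.11), with Stat3 lower (-0.70). The calls in the thioredoxin list, 4 of 13, and in the glucocorticoid list, 3 of 10, were near the 31.7% of all genes called. Of 15 peroxins, which build the organelle that holds catalase, 1 rose and 1 fell, and of 5 NADPH oxidase genes 0 passed in either direction.

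In HP against HR livers 10 of the 18 other NRF2 targets rose and none fell, where 7.2% of all genes were higher. Their median was 0.54, against -0.03 over all genes, with Txn1 (0.87), Tkt (0.82) and Ftl1 (0.82) highest. Keap1 (-0.70, limma adjusted p = 0.04305) and Bach1 (-0.53, adjusted p = 0.04784) were lower there, and Nfe2l2 was 0.45 higher with an adjusted p of 0.06177. In HR against ND livers 3 of the 18 targets rose, Aox1 (0.76), Ugdh (0.69) and Taldo1 (0.62), and G6pdx fell (-0.72). There 3.24% of all genes were called in either direction. Marker genes of several cell types were also compared in liver. Of 5 erythroid genes 3 rose in HP over ND. The 5 summed to 196 to 333 FPKM in HP, 119 to 208 in HR and 125 to 156 in ND livers. Both adipocyte-list genes that could be tested rose, Fabp4 (1.87) and Cidec (1.22), but Adipoq was at most 1.40 FPKM in any liver and was listed at 0 in all HR and ND livers. Macrophage genes summed to 50.2 to 79.9 FPKM in HP, 29.0 to 93.9 in HR and 47.8 to 63.6 in ND livers, and 0 of 5 passed in HP against ND, while Cd68 was higher in HP than in HR livers (1.26). Of 4 endothelial genes 2 fell, Kdr (-0.84) and Tek (-0.44), with sums of 8.74 to 11.9 FPKM in HP, 8.40 to 14.8 in HR and 15.7 to 17.7 in ND livers, and of 5 hepatocyte genes 2 rose, Apoa2 (1.19) and Ttr (1.05). Between HP and ND livers, 17.6% of all genes were higher and 14.1% were lower in HP. The part of erythroid, endothelial, hepatocyte and muscle transcripts in these results was not tested. In bulk tissue, fewer cells of a type and less RNA per cell cannot be told apart.

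In eWAT, the question was the same, and the answer depended on the libraries ND 1 and HR 2. Over all 9 libraries, limma called 0 of the 10 genes in HP against ND, HR against ND and HP against HR, where it called 2.11%, 0% and 0% of all 14430 genes in those comparisons; at an unadjusted p under 0.05 the counts of the 10 were 4, 0 and 2. Over the 7 libraries without ND 1 and HR 2, 6 of the 10 genes rose in HP over ND eWAT: Mt1, Mt2, Srxn1, Txnrd1, Hmox1 and Sod2. Over those 7 libraries 23.1% of the 13054 genes tested were called, 15.7% were higher and 7.4% were lower.

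Hmox1 had the largest difference of the set. It measured 110, 92.8 and 132 FPKM in HP eWAT, 42.7, 13.6 and 51.4 FPKM in HR eWAT, and 3.15, 17.0 and 18.5 FPKM in ND eWAT. HP values lay above all others, and HR 2, at 13.6 FPKM, fell below ND 2 and ND 3. Over 7 libraries Hmox1 was 2.58 higher in HP than in ND (SE 0.17, limma adjusted p = 0.0001991), 1.35 higher in HR than in ND (SE 0.19, adjusted p = 0.01409) and 1.22 higher in HP than in HR eWAT (SE 0.17, adjusted p = 0.02009). It was the 1 gene of the 10 called in HR against ND, where 4.14% of all genes were called and 3.85% were higher, and also in HP against HR, where 6.46% were called and 4.21% were higher. Over 9 libraries the difference of HP from ND was 3.30 (limma adjusted p = 0.05679). Both calls that involve HR were lost when either HR 1 or HR 3 was left out, and that of HP against HR also without HP 1 or HP 3.

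Srxn1 and Txnrd1 followed the same order. Srxn1 measured 44.3, 43.5 and 56.8 FPKM in HP eWAT, 26.3, 18.03 and 26.9 FPKM in HR eWAT, and 24.4, 13.6 and 21.0 FPKM in ND eWAT. Txnrd1 measured 45.3, 43.3 and 53.3 FPKM in HP eWAT, 31.9, 19.2 and 29.0 FPKM in HR eWAT, and 7.15, 22.3 and 28.3 FPKM in ND eWAT. For both genes each HP library was above each of the other 6. HR and ND overlapped over all 9 libraries but not over the 7 without ND 1 and HR 2. Over those 7, HR was higher than ND by 0.62 for Srxn1 (limma adjusted p = 0.2178) and 0.27 for Txnrd1 (adjusted p = 0.4516), and neither passed. Over 7 libraries Srxn1 was 1.44 higher in HP than in ND eWAT (SE 0.21, limma adjusted p = 0.003777) and Txnrd1 0.88 higher (SE 0.15, adjusted p = 0.008071), and both calls held without each single library. Neither passed over all 9 libraries, at 1.28 for Srxn1 (limma adjusted p = 0.1074) and 1.44 for Txnrd1 (adjusted p = 0.2633). In HP against HR, Srxn1 was 0.82 higher (adjusted p = 0.06728) and Txnrd1 0.61 higher (adjusted p = 0.06584); both passed without ND 2 and without ND 3.

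Nqo1 and Gclc did not pass in eWAT. Nqo1 measured 2.28, 5.22 and 2.66 FPKM in HP eWAT, 4.08, 1.03 and 2.83 FPKM in HR eWAT, and 2.60, 3.97 and 3.50 FPKM in ND eWAT. The groups overlapped fully, and the difference of HP from ND over 7 libraries was -0.17 (SE 0.31, limma adjusted p = 0.7334) and over 9 libraries -0.04 (adjusted p = 0.9689). Gclc measured 10.95, 12.9 and 9.97 FPKM in HP eWAT, 14.0, 10.95 and 13.5 FPKM in HR eWAT, and 3.27, 13.8 and 17.9 FPKM in ND eWAT. Apart from ND 1, its HP values lay below the ND values, and the difference over 7 libraries was -0.46 (SE 0.17, limma adjusted p = 0.1016). It was 0.20 over all 9 libraries, of the opposite sign (SE 0.54, limma adjusted p = 0.854). Over 7 libraries it passed without ND 2, after quantile normalization and after the length and GC correction.

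Mt1 measured 279, 273 and 269 FPKM in HP eWAT, 231, 242 and 147 FPKM in HR eWAT, and 1644, 139 and 185 FPKM in ND eWAT. Mt2 measured 164, 195 and 182 FPKM in HP eWAT, 165, 90.0 and 114 FPKM in HR eWAT, and 666, 75.1 and 112 FPKM in ND eWAT. The 3 HP libraries lay close together for both genes, and ND 1, which carried most of the spermatid and epididymal transcripts, was the highest of all 18 libraries. Over 7 libraries Mt1 was 0.77 higher in HP than in ND eWAT (SE 0.21, limma adjusted p = 0.04377) and Mt2 0.97 higher (SE 0.22, adjusted p = 0.02393). Over all 9 libraries the direction of Mt1 turned, with a difference of -0.35 (SE 0.85, limma adjusted p = 0.8375), and that of Mt2 was 0.02 (SE 0.74, adjusted p = 0.9921). The Mt1 call was lost without ND 2 or any 1 HP library, and the Mt2 call without ND 2, HP 2 or HP 3. The ratio of Mt1 to Mt2 was 1.29 to 1.85 in these 7 libraries, 2.47 in ND 1 and 2.69 in HR 2. Over the 7 libraries the genes most like Mt1, among 9388 compared, were Cox5b (r = 0.994), Ptma (r = 0.979) and Mmgt2 (r = 0.978). Those most like Mt2 were Stx3 (r = 0.976), Dffa (r = 0.976) and Slc25a37 (r = 0.972), and those most like Srxn1 were Dnmt1 (r = 0.995), Slc25a13 (r = 0.995) and Slco2b1 (r = 0.994). These too are descriptions, over libraries that share their group differences.

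Sod2 measured 45.6, 43.8 and 47.9 FPKM in HP eWAT, 43.2, 25.5 and 37.1 FPKM in HR eWAT, and 20.3, 28.3 and 27.5 FPKM in ND eWAT. All HP libraries were above all others, and HR 1 and HR 3 were above every ND library. Over 7 libraries Sod2 was 0.69 higher in HP than in ND eWAT (SE 0.12, limma adjusted p = 0.006875) and over 9 libraries 0.84 (adjusted p = 0.2855), and the HR difference of 0.51 missed the threshold (SE 0.13, adjusted p = 0.08694). Sod1 measured 431, 352 and 360 FPKM in HP eWAT, 434, 228 and 308 FPKM in HR eWAT, and 1584, 515 and 426 FPKM in ND eWAT. Its ND 1 value was again far above the rest, and over 7 libraries the groups overlapped, with a difference of HP from ND of -0.30 (SE 0.19, limma adjusted p = 0.3066); over 9 libraries it was -0.89 (adjusted p = 0.5858).

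Cat measured 246, 278 and 301 FPKM in HP eWAT, 305, 69.4 and 363 FPKM in HR eWAT, and 13.3, 464 and 356 FPKM in ND eWAT. In the 7 libraries HP lay below ND with no overlap, and the difference of -0.57 just missed the threshold (SE 0.17, limma adjusted p = 0.0526); over all 9 libraries its sign was the opposite, at 1.05 (SE 1.27, limma adjusted p = 0.6821). Over 7 libraries it passed without ND 3 and after quantile normalization, as did that of Sod1 after quantile normalization. ND 1 and HR 2, the libraries with few adipocyte transcripts, were also those lowest in Cat. Over the 7 libraries 3 of the 4 adipocyte genes fell in HP against ND, Adipoq (-1.19), Plin1 (-1.06) and Cidec (-0.88). Of 15 peroxins 0 rose and 4 fell, where 7.4% of all genes were lower: Pex3 (-1.05), Pex11a (-0.57), Pex5 (-0.53) and Pex13 (-0.47). Over all 9 libraries 0 genes of either list passed.

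Macrophage transcripts moved with the same groups in eWAT. The 6 macrophage genes summed to 3456 to 4777 FPKM in HP, 1599 to 1918 in HR 1 and HR 3, and 430 to 558 in ND 2 and ND 3, against 469 in HR 2 and 57.7 in ND 1. All 6 rose in HP over ND and in HR over ND over the 7 libraries, from Csf1r (2.20 in HP over ND) to Itgax (4.77). Genes of the phagocyte NADPH oxidase, which makes superoxide, rose with them: 5 of 6 in HP over ND, with Cybb (3.15) highest, and 5 of 6 in HR over ND. Over all 9 libraries 4 of 6 macrophage and 4 of 6 oxidase genes rose in HP over ND, and 0 of each in HR over ND. Mesothelial genes moved the other way: 2 of 4 fell in HP against ND over 7 libraries, Upk3b (-1.57) and Msln (-1.44), with sums of 7.37 to 12.7 FPKM in HP and 24.1 to 26.3 in ND eWAT. Of 5 erythroid genes 1 fell, Hbb-bs (-1.41). Over those 7 libraries 15.7% of all genes were higher and 7.4% were lower in HP over ND, and 3.85% were higher in HR over ND. The part of macrophage, mesothelial and erythroid transcripts in the rises of Hmox1, Srxn1, Txnrd1, Sod2, Mt1 and Mt2 was not tested.

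**Figure D4:**
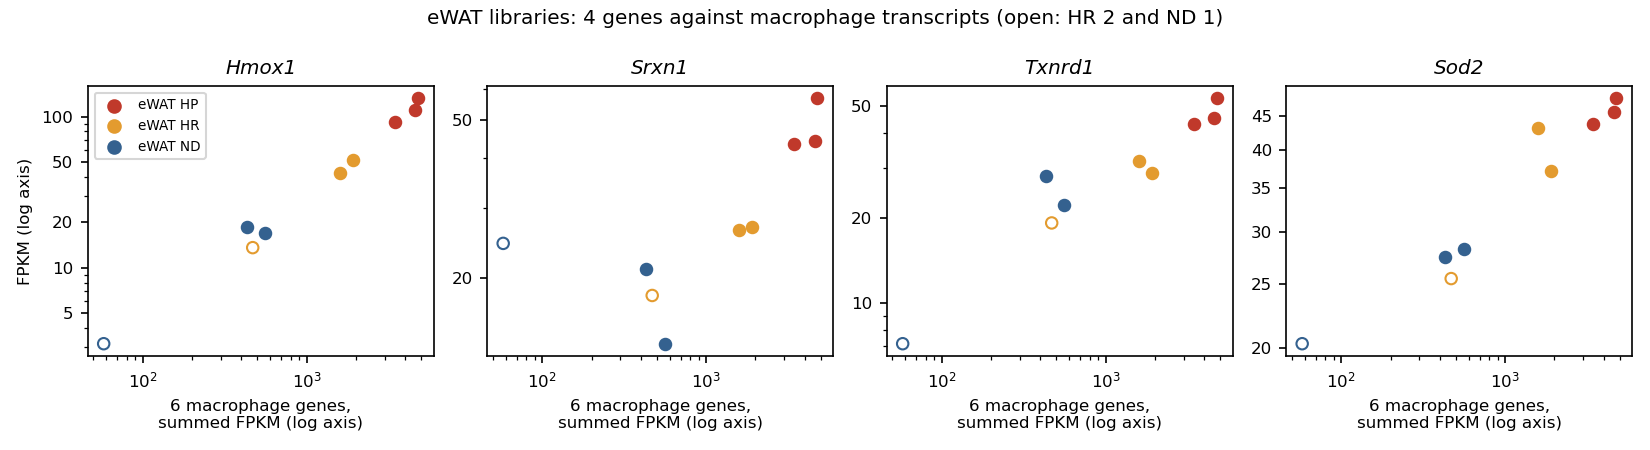
FPKM of Hmox1, Srxn1, Txnrd1 and Sod2 in the 9 eWAT libraries (log axis) against the summed FPKM of 6 macrophage genes (log axis); open circles are HR 2 and ND 1. The 3 HP libraries lie at the upper right in each panel, at 3456 to 4777 FPKM of macrophage transcripts, and for Hmox1 the other libraries fall in order of their macrophage sum, except that ND 2 and ND 3 and HR 2 lie close together.

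Among the wider lists in eWAT, Nfe2l2 (0.64, SE 0.11, limma adjusted p = 0.009331) and Bach1 (0.80, SE 0.16, adjusted p = 0.01516) rose in HP over ND over 7 libraries, and Keap1 differed by 0.22 (adjusted p = 0.5844). Of the 18 other NRF2 targets 7 rose and 2 fell (median 0.18, against 0.01 over all genes), with Ftl1 (1.69), Txn1 (0.88), Fth1 (0.86) and Blvrb (0.79) highest, and Aox1 (-0.64) and Tkt (-0.52) lower. Blvra, which works on the product of haem oxygenase, rose by 1.15 (SE 0.16, adjusted p = 0.003537). Of 14 glutathione genes 1 rose, Glrx (0.81), and 1 fell, Glrx3 (-0.85); Gclm differed by 0.10 (adjusted p = 0.6841). Of 13 thioredoxin-system genes, Sesn1 rose (1.07) and Sesn2 (-1.51) and Txnip (-0.72) fell. Of 18 metal genes, Slc39a10 (1.13) and Slc39a1 (0.49) rose and Slc39a8 (-0.81) fell; the fall was lost under all 3 other scalings. Mtf1 differed by -0.18 (SE 0.29, adjusted p = 0.6964). By the same test, 15.7% of all genes were higher and 7.4% were lower over these 7 libraries. The calls in the glutathione, thioredoxin and metal lists were near or below the 23.1% of all genes called in either direction. Of 9 glucocorticoid-responsive genes 0 passed, and of 9 acute phase genes 3 rose, Saa3 (4.43), Hpx (2.82) and Hp (2.01). Over all 9 libraries 2 acute phase genes rose and 0 genes of the other lists in this paragraph passed; the median of the NRF2 targets was then 0.84, against 0.09 over all genes.

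Whether the diet difference itself differed between the tissues was tested as the difference of the HP minus ND contrasts, eWAT minus liver. Over 16 libraries 6 of the 10 genes differed, against 27.9% of all 13730 genes. Hmox1 (1.53, SE 0.31, limma adjusted p = 0.002838), Srxn1 (1.03, SE 0.24, adjusted p = 0.005965) and Txnrd1 (0.92, SE 0.21, adjusted p = 0.005489) had the larger difference in eWAT. Nqo1 (-1.68, SE 0.35, limma adjusted p = 0.003274), Gclc (-0.91, SE 0.27, adjusted p = 0.02245) and Sod1 (-0.92, SE 0.28, adjusted p = 0.02616) had a lower difference in eWAT than in liver; within the tissues it was -0.46 in eWAT and 0.45 in liver for Gclc, neither of which passed. The Sod1 call was lost without eWAT HP 2, HP 3 or ND 2 and without liver HP 2, ND 1 or ND 3, and the Gclc call without eWAT HP 3 or ND 3. The Gclc call was also lost after rescaling (-0.62, adjusted p = 0.1787) and the Sod1 call without the filter on low values (adjusted p = 0.05124). Sod2, called in both tissues, showed a difference of 0.09 (SE 0.14, adjusted p = 0.6646), and Mt2 one of 0.18 with an SE of 1.14. Over all 18 libraries 0 of the 10 passed, against 4.98% of all genes, with 5 of the 10 at an unadjusted p under 0.05. For HR minus ND 0 of 10 passed over 16 libraries (7.16% of all genes) and 0 over 18 (0.06%), with 2 of the 10 at an unadjusted p under 0.05 in each. For HP minus HR, Txnrd1 alone passed over 16 libraries (0.82, SE 0.21, limma adjusted p = 0.02817; 10.1% of all genes), and 0 of 10 over 18, either by that test or at an unadjusted p under 0.05, where 0.0733% of all genes passed. The Txnrd1 call was lost without eWAT HP 3, HR 1 or HR 3 and without liver HP 2, HR 2 or HR 3.

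On the normal diet, the levels themselves differed between eWAT and liver for 6 of the 10 genes over 16 libraries, where 78.6% of all genes were called. Gclc was lowest in eWAT relative to liver (-2.21, SE 0.20, limma adjusted p = 2.801e-07), followed by Cat (-1.62, SE 0.16), Sod1 (-1.36, SE 0.21), Sod2 (-0.57, SE 0.10) and Srxn1 (-0.45, SE 0.18, adjusted p = 0.03425). Hmox1 was 1.59 higher in eWAT (SE 0.23, limma adjusted p = 3.263e-05), and 0.80 to 1.92 higher under the alternatives. The median difference over all genes in this fit was 0.84, also higher in eWAT. Over all 18 libraries 4 of the 10 were called, all lower in eWAT, Gclc, Txnrd1, Cat and Sod2, against 49.7% of all genes in either direction and 10% lower. The Txnrd1 call (limma adjusted p = 0.04721) held in 3 of the 18 fits that left out 1 library, and the others in all 18. It was also lost without the filter on low values, after rescaling and with the replicate block. FPKM from tissues with different main transcripts are not on a common scale, and rescaling to the same sum moved the median of all genes to 1.13 over 16 libraries and left Srxn1 and Sod2 without a call.

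FPKM is scaled by transcript length, so levels can be set side by side within a tissue. In HP livers the means were 1861 ± 317 FPKM for Sod1, 1145 ± 117 for Cat, 371 ± 237 for Mt1, 128 ± 75.8 for Mt2, 107 ± 23.1 for Gclc, 64.3 ± 4.06 for Sod2, 31.8 ± 4.26 for Txnrd1, 31.7 ± 3.80 for Srxn1, 11.8 ± 0.906 for Hmox1 and 9.30 ± 2.06 for Nqo1 (SD, n = 3). The SD ranges of the neighbours Mt1 and Mt2, Mt2 and Gclc, Txnrd1 and Srxn1, and Hmox1 and Nqo1 overlapped. In HP eWAT the means were 381 ± 43.9 FPKM for Sod1, 275 ± 27.3 for Cat, 273 ± 4.98 for Mt1, 181 ± 15.6 for Mt2, 112 ± 19.9 for Hmox1, 48.2 ± 7.42 for Srxn1, 47.3 ± 5.29 for Txnrd1, 45.8 ± 2.05 for Sod2, 11.3 ± 1.51 for Gclc and 3.39 ± 1.60 for Nqo1 (SD, n = 3). There the SD ranges of Cat and Mt1 overlapped, as did those of Srxn1, Txnrd1 and Sod2, and Hmox1 stood above all 3 of them, whereas in HP livers it stood below them.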

How the data were processed

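Total RNA of 9 eWAT and 9 liver samples was sequenced as mRNA libraries, per the labels' protocols. The authors deposited 1 table of FPKM values with 23474 genes and 18 library columns. Cufflinks 2.1.1, STAR 2.4.0 and CASAVA 1.8.2 are named in the submitters' processing notes, with no roles; build, annotation and strandedness were not given in the sources used here. Reads of Mt2, Txnrd1 and Sod1 therefore cannot be told apart from those of genes annotated over them. Total counts are not in the table, so no counting interval can be given; steps of low values put the depth of the liver libraries at 0.89 to 1.11 of liver ND 2, and 4 eWAT libraries gave no clear value. No pair of libraries shared over 0.0101% of values.

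Symbols came from the GENCODE annotation of the reference, for 22671 genes. The test was limma's (version 3.58.1, R 4.3.3), on log2(FPKM + 1), with a variance trend, for genes that reached 1 FPKM in 3 or more libraries of a fit, two-sided, with Benjamini-Hochberg adjustment over all genes tested and a threshold of 0.05. The log2(FPKM + 1) scale understates the change of low genes. The 3 groups of a tissue shared 1 fit, and the 6 groups of both tissues 1 fit for the tissue comparisons. Code was tested on simulated data. Alternatives were another pseudocount (0.1), no filter, quantile normalization, rescaling to the same sum, no trend, a replicate block, only the compared groups, each library left out, and a length and GC correction added after seeing the data. All 10 genes are described; of each wider list up to 4 called genes with the largest difference are named per comparison, with Nfe2l2, Keap1, Bach1, Mtf1 and Gclm. The genes and lists were chosen with earlier results of these data known.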

Additional observations from a re-analysis of the deposited data

Results flagged for a closer look

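The difference between HP and ND was not the same in eWAT and liver for 6 genes over 16 libraries, by the limma test of the difference of contrasts. The eWAT minus liver value was 1.53 for Hmox1, 1.03 for Srxn1 and 0.92 for Txnrd1. It was -1.68 for Nqo1, -0.91 for Gclc and -0.92 for Sod1. For HP against HR the same test gave 0.82 for Txnrd1. The call was lost for Sod1 without any 1 of 6 libraries (eWAT HP 2, HP 3 and ND 2, liver HP 2, ND 1 and ND 3) and without the filter on low values, for Gclc without eWAT HP 3 or ND 3 and after rescaling to the same sum, and for Txnrd1 in HP against HR without eWAT HP 3, HR 1 or HR 3 or liver HP 2, HR 2 or HR 3. None of these differences passed over all 18 libraries, where the spread includes eWAT ND 1 and HR 2.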

How the results depend on the processing

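Members called are counted of 10. In liver HP against ND the 5 calls became 3 without the filter on low values and 3 after rescaling to the same sum, each time without Srxn1 and Sod1; Nqo1, Hmox1 and Sod2 were called under every alternative and without each library. In HP against HR livers the 2 calls became 1 without the filter, after rescaling and with only the compared groups. In eWAT over 7 libraries, HP against HR gave 2 calls after quantile normalization, 2 after the length and GC correction and 3 with only the compared groups, and HR against ND gave 0 with only the compared groups. In HP against ND eWAT over 7 libraries, Mt1 was lost without the filter, without the variance trend and after quantile normalization. The tissue difference of HP against ND over 18 libraries gave 1 call after rescaling (Srxn1), and eWAT against liver on ND over 18 libraries gave 2. Over 16 libraries the tissue difference of HR against ND gave 1 call after quantile normalization, and that of HP against HR gave 2 after the length and GC correction. Nqo1 was 0.41 higher in eWAT than in liver on ND over 16 libraries, where the median over all genes was 0.84. It was -0.72 after quantile normalization and 0.69 after rescaling, both past the threshold. Of 3390 values of single genes under alternatives, 93 others changed sign, none of them past the threshold. The causes were not tested.

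Within a tissue, same-numbered libraries of different groups correlated at -0.35 to 0.43 in liver and -0.84 to 0.62 in eWAT. Those with different numbers correlated at -0.27 to 0.32 in liver and -0.80 to 0.86 in eWAT. Whether a number marks the same mouse in both tissues was not tested, and the tissue comparisons treated all libraries as independent. With the replicate block, HP against HR livers gave 1 call, and over 7 eWAT libraries HR against ND and HP against HR gave 0 each. HP against ND gave 4 in liver, without Srxn1, and 4 in eWAT over 7 libraries, without Mt1 and Mt2.

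Leaving out each library in turn gave 3 to 5 calls in liver HP against ND (lowest without HP 2 or ND 3), 0 to 3 in HP against HR and 0 in HR against ND. The HP against HR count was 0 without HP 2, HP 3 or HR 3, 1 without HR 2 or ND 1, and 3 without HR 1. Over 7 eWAT libraries it gave 4 to 7, 0 to 2 for HR against ND and 0 to 3 for HP against HR; a lone library left in a group is assumed to vary like the others. Over 9 eWAT libraries it gave 0 to 1 for HP against ND (1 without HR 2, Hmox1). The tissue difference gave 0 to 2 for HP against ND over 18 libraries, and over 16 libraries 4 to 6 for HP against ND, 0 to 1 for HR against ND and 0 to 2 for HP against HR. eWAT against liver on ND gave 3 to 5 over 18 and 5 to 7 over 16 libraries.

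Without total counts, precision at low FPKM, as for Nqo1 in eWAT, cannot be stated, and 2 ND and 2 HR libraries carry the eWAT results over 7 libraries.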
